A study of Mus musculus with 7 samples.

Results

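Type I interferon-stimulated genes encode antiviral effectors and their regulators, and 42 of them were followed here in the RNA of mouse bone marrow-derived dendritic cells (BMDCs). They were taken from a list of gene symbols, a rule that uses no measured value, and all 42 were found among the 28666 genes of the deposited table. BMDCs are antigen-presenting cells grown in culture, and they were compared here as immature cells (3 libraries) and mature cells (4 libraries). For both groups bone marrow came from female C57BL/6 mice aged 6 to 8 weeks and was differentiated for 7 days with GM-CSF and IL-4. The cells then shared a Transwell chamber with MC38 colon adenocarcinoma cells, and the profiled cells were flow-sorted after 24 h of DON, a glutamine antagonist used at 5 μM. The figure legend of the study names DMSO as well as DON for this sort, and neither the labels nor the methods say which libraries, if any, came from DMSO wells. The sort markers and the number of mice behind a library were not given either, so p-values measure the spread between libraries, which may be technical.

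Cells sense type I interferon through a receptor made of Ifnar1 and Ifnar2, which carry the kinases Tyk2 and Jak1. The kinases activate transcription factors such as Stat2, which acts with Irf9 at the interferon-stimulated response element (ISRE) in the promoters of target genes. In dendritic cells the same genes are also reached by interferon regulatory factors that act downstream of nucleic acid sensors, and their products limit viral entry, replication and release.

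Some facts of the whole series bear on these values. Libraries held 54846746 to 67973086 counts. All 8 listed markers of mature dendritic cells were called higher in mature libraries, with a median log2 fold change of 3.16. Their summed CPM (TMM-normalized counts, expressed per a fixed library size) was 1330 to 1410 in immature and 12700 to 15700 in mature libraries. The list includes Cd80 and Cd86, whose proteins define mature cells in the study's flow cytometry of tumors. If the sort used them too, the rise of these genes may have been set by it. Of 8 listed dendritic cell markers 6 had positive log2 fold changes. Flt3 (3.77) and Zbtb46 (2.05) were called higher, and Itgam (-2.85) was called lower. Itgax, at -0.41, stood at 1290 to 1460 CPM in immature and 874 to 1140 CPM in mature libraries. Macrophage markers were called lower in 8 of 9 tested, and their sum was 1720 to 1810 CPM in immature and 293 to 342 CPM in mature libraries. The sum of 7 plasmacytoid dendritic cell markers was 89.7 to 101 CPM in immature and 143 to 172 CPM in mature libraries. Of the 6 tested, 5 had positive log2 fold changes, and Pacsin1 (2.85) was called higher. Ly6d was at 0 in 6 of 7 libraries and was not tested. The following set mature libraries apart from each other. Cardiac muscle genes summed to 721 to 851 CPM in mature replicates 2 to 4, against 27.1 in mature replicate 1 and 5.06 to 5.61 in immature libraries. Mature replicate 3 differed from the other mature libraries by a median chi-square per gene of 6.93 to 9.74. Counts were divided by 4 for this measure, and only genes above a count floor in the pair were used. Pairs among mature replicates 1, 2 and 4 gave 1.17 to 1.48. Sampling noise would give 0.455 if 4 counts stand for 1 fragment.

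The interferon-stimulated genes did not move as 1 block between immature and mature BMDCs. Mx1, Mx2, Herc6 and Helz2 were higher in mature cells, Oas2, Ifi204, Ifitm3, Rtp4 and Lgals9 were lower, and 33 of the 42 were not called in either direction. Calls needed a change of 1 or more on the log2 scale, either way, together with an adjusted p below 0.05 in edgeR's quasi-likelihood test over all 17461 genes tested. All 42 genes passed the filter on low counts and entered the test. The 4 genes called higher are 9.52% of the 42, beside 13.2% of all genes tested, and the 5 called lower are 11.9%, beside 9.95% of all genes tested. Either way 9 genes (21.4%) were called, beside 23.1% of all genes. The median log2 fold change of the 42 was 0.15, against 0.05 over all genes tested, and 25 of the 42 values were positive. With the adjusted p alone 26 of the 42 passed (61.9%, against 46.1% of all genes), 14 upwards (33.3%) and 12 downwards (28.6%). Of all 17461 genes tested 4047 passed upwards and 4006 downwards. Without mature replicate 3 the number of members was 31, with 19 upwards and 12 downwards. The share of all genes by the adjusted p alone was not counted in that setting. Whether the rise is particular to the members was therefore not tested.

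**Figure D1:**
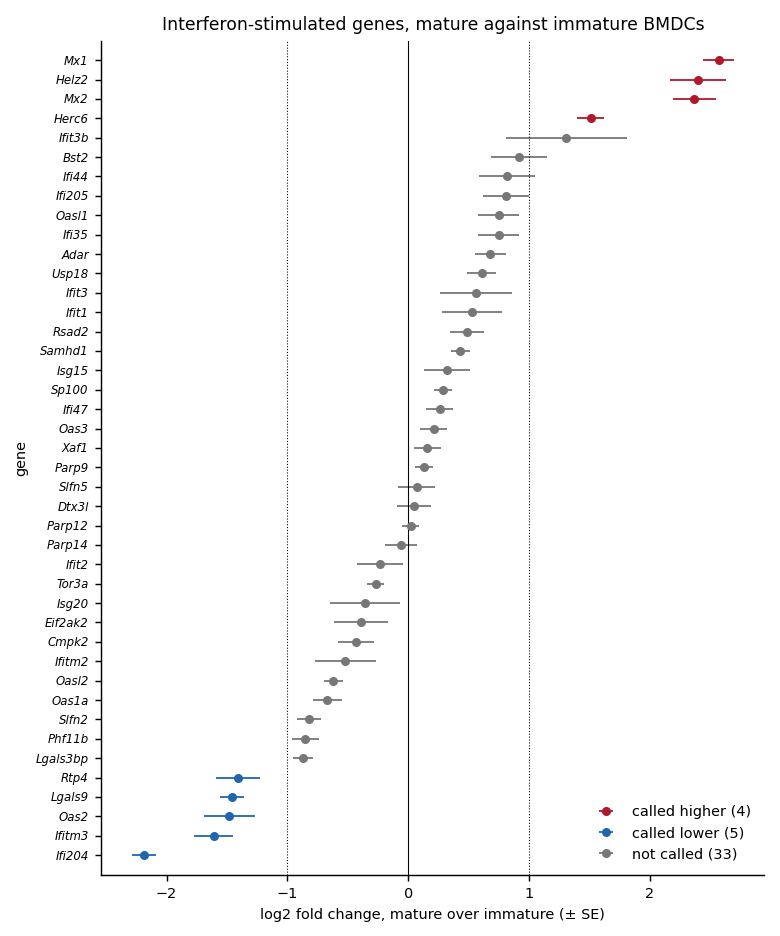
Log2 fold change of mature over immature BMDCs on the horizontal axis for each of the 42 genes, with bars for the standard error and dotted lines at the fold criterion. Mx1, Helz2, Mx2 and Herc6 lie to the right of 1, and Ifi204, Ifitm3, Oas2, Lgals9 and Rtp4 to the left of -1; Ifit3b also lies beyond 1 but with a wide error bar.

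Library ranges gave the same mixed picture. In 16 genes every mature library lay above every immature one (38.1%, against 25.4% of all genes tested), and in 13 every mature library lay below (31.0%, against 26.7%). In the other 13 genes the groups overlapped. Together 29 of 42 (69.0%) did not overlap, against 52.1% of all genes. The members and all genes were not matched for expression level, either here or for the share by the adjusted p alone. The CPM of the 42 genes summed to 3190 to 3310 in immature and 3520 to 3770 in mature libraries. In bulk RNA a change in the number of cells that carry a transcript cannot be told apart from a change in the RNA per cell.

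**Figure D2:**
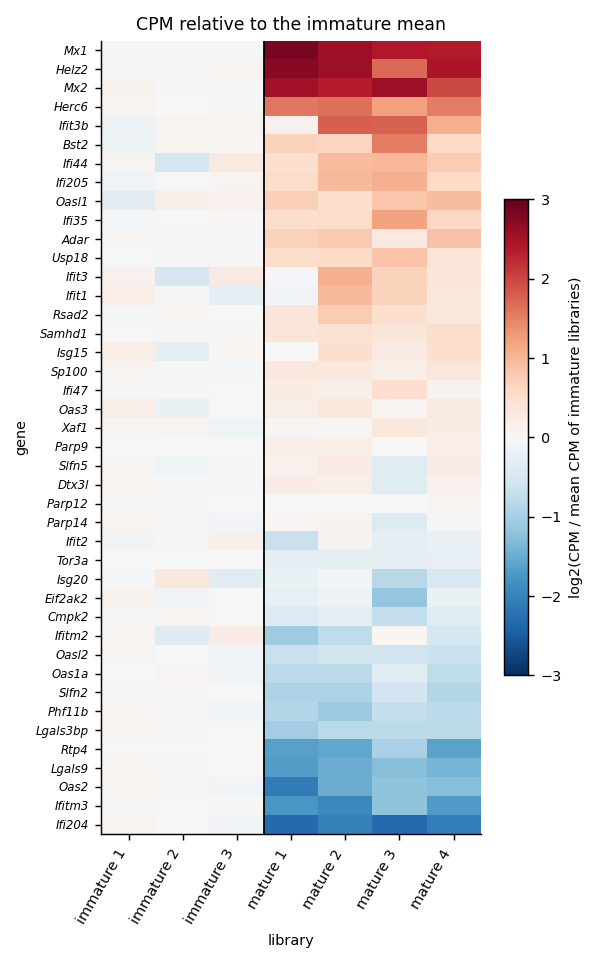
CPM of each gene (rows, from the most raised to the most lowered) in each of the 7 libraries (columns), as log2 of its ratio to the mean of the immature libraries. The immature columns stay near 0, the upper 4 rows are red and the lowest 5 blue in all 4 mature columns, and the middle rows lie near 0.

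Promoter sequence was read to see whether these genes share the ISRE. RefSeq windows on GRCm38.p6, from 250 bases before to 50 bases after each transcription start, were matched by symbol to 33 of the 42 genes. The core of the ISRE, written here as GAAA, any 2 bases and GAAA again, was found on either strand, in any window of the gene, in 15 of the 33 (45.5%, 95% Wilson interval 29.8% to 62.0%), against 1079 of 27025 genes with a window (3.99%). With a C after the core, as in many described elements, the share was 10 of 33 (30.3%) against 0.944%. The gamma-activated sequence, TTC, any 3 bases and GAA, a site known from interferon gamma targets, was found in 9 of 33 (27.3%) against 9.55% of all genes, and in Bst2 and Ifitm3 it overlapped an ISRE core. Mx1, Mx2, Oas2, Ifi204, Usp18, Parp9, Parp14, Rtp4 and Tor3a had no matched window.

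The stretches that follow are shown because they hold cores and belong to well-known members that were not called. Each ends at the base before the RefSeq start and is printed on the strand of its gene, with the core in capitals. A core on the opposite strand reads as its reverse complement. They are Isg15 (chr4:156200819-156200938, minus strand), Ifit1 (chr19:34640739-34640888, plus strand), Oas1a (chr5:120907526-120907585, minus strand), Bst2 (chr8:71537473-71537622, minus strand) and Rsad2 (chr12:26456453-26456602, minus strand).

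Isg15: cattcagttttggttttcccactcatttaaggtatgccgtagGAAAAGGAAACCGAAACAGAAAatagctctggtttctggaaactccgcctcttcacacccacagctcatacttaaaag
Ifit1: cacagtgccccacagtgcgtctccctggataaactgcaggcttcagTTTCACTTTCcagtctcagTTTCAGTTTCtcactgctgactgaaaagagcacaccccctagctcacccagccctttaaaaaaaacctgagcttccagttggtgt
Oas1a: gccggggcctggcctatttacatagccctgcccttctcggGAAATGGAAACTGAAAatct
Bst2: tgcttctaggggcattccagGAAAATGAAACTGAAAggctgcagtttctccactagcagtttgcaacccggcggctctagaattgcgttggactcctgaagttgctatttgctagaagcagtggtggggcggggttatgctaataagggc
Rsad2: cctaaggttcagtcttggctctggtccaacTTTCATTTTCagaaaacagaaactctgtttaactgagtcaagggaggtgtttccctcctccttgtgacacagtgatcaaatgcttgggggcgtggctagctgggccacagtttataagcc

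Isg15 held 3 overlapping cores, the nearest beginning 66 bases before its start, and Oas1a held a pair of overlapping cores only 20 and 14 bases before its start. Bst2 held a pair of overlapping cores beginning 130 and 124 bases before the start. The cores of Ifit1 and Rsad2 lay on the opposite strand.

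Ifit3 and Ifit3b are neighbouring copies on chromosome 19, and their promoter stretches are shown to compare them. They are Ifit3 (chr19:34583349-34583528, plus strand) and Ifit3b (chr19:34607747-34607956, plus strand).

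Ifit3: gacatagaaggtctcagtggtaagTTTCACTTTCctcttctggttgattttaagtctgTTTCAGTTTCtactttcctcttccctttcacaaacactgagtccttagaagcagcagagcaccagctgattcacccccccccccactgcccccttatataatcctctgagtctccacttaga
Ifit3b: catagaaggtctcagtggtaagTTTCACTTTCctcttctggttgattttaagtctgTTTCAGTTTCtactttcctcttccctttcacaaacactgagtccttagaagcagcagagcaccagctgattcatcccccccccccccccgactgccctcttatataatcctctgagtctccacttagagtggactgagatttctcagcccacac

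Each held 2 cores on the opposite strand with 34 bases between their starts. Both cores lay in a run of at least 169 identical bases, which was cut off by the edge of the Ifit3b window. The run lay 32 bases farther from the annotated start in Ifit3b than in Ifit3.

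Few of the called genes had a window, so their counts are a description. Of the 4 called higher, Herc6 and Helz2 had a window, and neither held the core. Of the 5 called lower, Ifitm3 and Lgals9 had a window and both held it, as did 13 of the 29 matched genes that were not called (44.8%). These are counts of letters in 4 windows of called genes, with 95% Wilson intervals of 0% to 65.8% for 0 of 2 and 34.2% to 100% for 2 of 2. The stretches before the starts of 3 of them, Herc6 (chr6:57580842-57580991, plus strand), Helz2 (chr2:181242028-181242177, minus strand) and Lgals9 (chr11:78984925-78985014, minus strand), are shown for contrast with those of the uncalled genes above.

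Herc6: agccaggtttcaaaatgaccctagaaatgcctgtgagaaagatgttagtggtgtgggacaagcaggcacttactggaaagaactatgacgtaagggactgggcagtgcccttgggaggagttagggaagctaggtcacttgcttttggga
Helz2: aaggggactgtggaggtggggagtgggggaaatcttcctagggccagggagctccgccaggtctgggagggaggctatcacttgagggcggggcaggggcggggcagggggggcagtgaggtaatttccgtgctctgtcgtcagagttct
Lgals9: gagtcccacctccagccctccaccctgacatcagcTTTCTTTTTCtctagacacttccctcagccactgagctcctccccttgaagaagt

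The capitals in Lgals9 mark a core on the opposite strand, and a further core lies just inside its start. In Ifitm3 both cores begin within the transcribed part of the window, 3 and 20 bases from the start.

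The 4 genes that were higher in mature BMDCs were raised in every mature library. Mx1 encodes a dynamin-like GTPase that blocks orthomyxoviruses in the nucleus, and C57BL/6 mice are known to carry a defective allele of it. It lies at chr16:97447035-97462907 on GRCm38. Its CPM was 59.5, 59.6 and 56.5 in immature replicates 1 to 3 and 421, 355, 309 and 304 in mature replicates 1 to 4. The lowest mature library was thus several times above the highest immature one. The mean rose from 58.5 ± 1.71 (SD, n = 3) to 347 ± 54.0 (SD, n = 4), a log2 fold change of 2.57 ± 0.13 (SE, adjusted p = 1.27e-06).

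Mx2, whose product is the cytoplasmic Mx GTPase, starts 72401 bases from Mx1 on the opposite strand. Its CPM was 2.79, 2.48 and 2.48 in immature libraries and 14.7, 13.3, 15.4 and 10.2 in mature libraries. Its level was low in immature cells, and the groups were far apart. It rose with a log2 fold change of 2.37 ± 0.18 (SE, adjusted p = 1.11e-05), near that of Mx1. The difference between these fold changes was not tested.

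Helz2 encodes a helicase that acts as a nuclear receptor coactivator. It lies at chr2:181227615-181242027. Its CPM was 78.8, 77.8 and 86.2 in immature libraries and 537, 478, 261 and 439 in mature libraries. Mature replicate 3 was the lowest of the mature libraries and still above every immature one. Helz2 thus rose by a log2 fold change of 2.40 ± 0.23 (SE, adjusted p = 4.51e-05), and it was 2.61 without mature replicate 3.

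Herc6 encodes the main ligase that attaches Isg15 to proteins in mice. Its CPM was 38.7, 36.5 and 35.3 in immature libraries and 110, 115, 86.9 and 107 in mature libraries. All mature libraries were above the immature ones, with mature replicate 3 again the lowest. The log2 fold change was 1.51 ± 0.11 (SE, adjusted p = 9.52e-06). Of its 100-base transcript stretches 20.9% also occur in the gene model Gm45193, so part of its reads could have been assigned there.

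**Figure D3:**
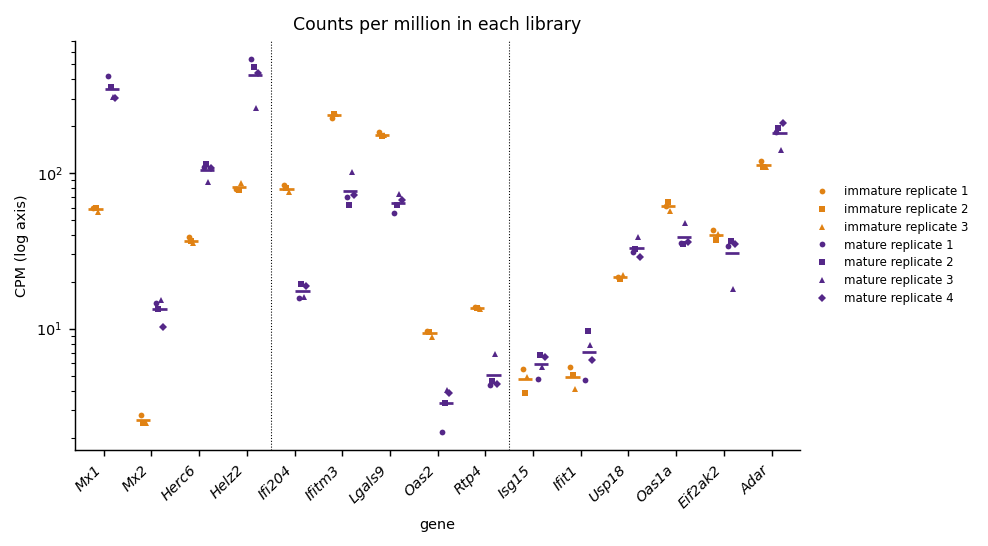
CPM on a log axis in each library (points, with the symbol giving the replicate) and group means (bars) for the 9 called genes and 6 further well-known members. To the left of the first dotted line the mature points lie above the immature ones, between the dotted lines they lie below, and to the right the groups are closer or overlap.

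The 5 genes that were lower in mature BMDCs came from different families. Ifi204 encodes a PYHIN protein that binds DNA in macrophages and lies at chr1:173747293-173766943. Its CPM was 83.5, 79.7 and 75.3 in immature libraries and 15.7, 19.4, 15.9 and 18.9 in mature libraries. The groups were separated by a wide gap. The mean fell from 79.5 ± 4.14 (SD, n = 3) to 17.5 ± 1.93 (SD, n = 4), a log2 fold change of -2.19 ± 0.10 (SE, adjusted p = 9.56e-07). Of its 100-base stretches 16.8% occur in other genes, mainly Ifi211.

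Ifitm3, whose product restricts the entry of enveloped viruses from endosomes, lies at chr7:141009586-141010770. Its CPM was 225, 238 and 240 in immature libraries and 70.5, 61.9, 102 and 72.5 in mature libraries. Mature replicate 3 was the highest mature library and was still below every immature one. For Ifitm3 the log2 fold change was -1.61 ± 0.16 (SE, adjusted p = 5.31e-05) and -1.76 without mature replicate 3.

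Lgals9 encodes galectin-9, a lectin that binds glycans on T cell and myeloid receptors. Its CPM was 183, 172 and 175 in immature libraries and 55.4, 62.6, 72.8 and 66.9 in mature libraries. No mature library reached the immature range. Lgals9 had a log2 fold change of -1.46 ± 0.10 (SE, adjusted p = 6.3e-06).

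Oas2 and Rtp4 fell from lower levels. Oas2 encodes an oligoadenylate synthetase, an enzyme that senses double-stranded RNA and activates RNase L. Its CPM was 9.68, 9.51 and 8.80 in immature libraries and 2.18, 3.31, 4.03 and 3.85 in mature libraries. The log2 fold change was -1.48 ± 0.21 (SE, adjusted p = 5.48e-04), and it was -0.74 and no longer past the fold criterion with limma on log2(FPKM + 1), a scale that understates changes of low genes. Rtp4, a receptor transporter protein, had a CPM of 13.7, 13.5 and 13.3 in immature libraries and 4.38, 4.58, 6.92 and 4.41 in mature libraries. In both genes every mature library was below every immature one. The log2 fold change of Rtp4 was -1.41 ± 0.18 (SE, adjusted p = 2.76e-04) and -1.57 without mature replicate 3. Of its 100-base stretches 11.2% are shared with the gene model Gm45338.

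Macrophage markers fell in the same libraries as these 5 genes, with summed levels given above. The part of that difference in the falls of Ifi204, Ifitm3, Lgals9, Oas2 and Rtp4 was not tested. In mature replicate 1, where cardiac genes summed to 27.1 CPM, the 9 called genes lay outside the immature range as well. Without mature replicate 1 the counts were 5 higher and 5 lower, and without mature replicate 3 they were 4 and 5.

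Isg15 and Ifit1 were not called. Isg15, the ubiquitin-like modifier that Herc6 attaches and Usp18 removes, was at 5.49, 3.86 and 4.91 CPM in immature and 4.74, 6.74, 5.67 and 6.60 CPM in mature libraries. Ifit1, which binds viral RNA by its cap, was at 5.64, 5.03 and 4.12 CPM in immature and 4.65, 9.66, 7.83 and 6.27 CPM in mature libraries. In both genes mature replicate 1 lay within the immature range and the groups overlapped. The log2 fold change was 0.32 ± 0.19 (SE, adjusted p = 0.205) for Isg15 and 0.53 ± 0.25 (SE, adjusted p = 0.124) for Ifit1. These p-values do not show that the levels were equal. Mature replicate 1 was the lowest of the mature libraries in Isg15 and in all 4 Ifit genes, and in 18 of the 42 members altogether, against 5, 13 and 6 members for mature replicates 2, 3 and 4. It is also the mature library with the lowest cardiac sum, and whether the features are linked was not tested.

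Usp18, which removes Isg15 and dampens signalling at Ifnar2, was at 21.4, 20.9 and 22.1 CPM in immature and 30.9, 32.5, 38.9 and 28.7 CPM in mature libraries. Adar, which edits double-stranded RNA, was at 120, 110 and 110 CPM in immature and 183, 196, 140 and 208 CPM in mature libraries. In both genes the mature libraries lay above the immature ones, but by less than the fold criterion. The log2 fold change was 0.61 ± 0.12 (SE, adjusted p = 0.00276) for Usp18 and 0.68 ± 0.13 (SE, adjusted p = 0.00313) for Adar.

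Oas1a, another oligoadenylate synthetase, was at 61.6, 65.1 and 57.1 CPM in immature and 35.7, 35.1, 47.5 and 36.1 CPM in mature libraries. Eif2ak2, the kinase PKR that halts translation on double-stranded RNA, was at 43.2, 37.2 and 40.3 CPM in immature and 33.8, 36.4, 17.9 and 34.8 CPM in mature libraries. Oas1a lay below the immature range in every mature library by a log2 fold change of -0.67 ± 0.12 (SE, adjusted p = 0.00217; -0.76 without mature replicate 3), though 40.9% of its 100-base stretches are shared with Oas1g. Eif2ak2 had a log2 fold change of -0.39 ± 0.22 (SE, adjusted p = 0.187), and -0.18 without mature replicate 3.

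Members of 1 family often went different ways. Of the 5 oligoadenylate synthetase genes 1 was called (against 23.1% of all genes). Their log2 fold changes ran from -1.48 in Oas2 to 0.75 in Oasl1. Oasl1 passed the adjusted p alone upwards (adjusted p = 0.0065) and Oasl2 downwards, at -0.62 ± 0.08 (SE, adjusted p = 2.76e-04). The 4 Ifit genes, which share a locus on chromosome 19, had values between -0.23 in Ifit2 and 1.31 in Ifit3b. None of the 4 was called (against 23.1% of all genes). Ifit3b was past the fold but had an adjusted p of 0.0581, with 0.273 to 0.325 CPM in immature and 0.333 to 1.06 CPM in mature libraries. It passed with DESeq2 (adjusted p = 0.0425), and 27.4% of its 100-base stretches are shared with Ifit3.

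The PYHIN genes on chromosome 1 differed in the same way. Ifi204 fell, while Ifi205 was at 3.05 to 3.49 CPM in immature and 4.80 to 6.87 CPM in mature libraries, a log2 fold change of 0.81 ± 0.19 (SE, adjusted p = 0.00703). Of 11 PYHIN genes tested across the lists, 3 were called lower (Ifi204, Ifi203 and Ifi207, against 9.95% of all genes) and none higher (against 13.2%). The Ifitm genes on chromosome 7 were split as well, since Ifitm3 and Ifitm6 fell, Ifitm1 rose and Ifitm2 was not called. Ifitm2 stood at 64.3 to 98.5 CPM in immature and 40.3 to 86.9 CPM in mature libraries, with mature replicate 3 the highest of these. Its log2 fold change was -0.52 (adjusted p = 0.13) and, without mature replicate 3, -0.74 (adjusted p = 0.00365), and 34.9% of its 100-base stretches occur in other genes.

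A group of antiviral genes had log2 fold changes close to 0. Parp9 and Dtx3l, whose products form a complex that supports interferon-driven transcription, start 681 bases apart on opposite strands of chromosome 16. Their log2 fold changes were 0.13 ± 0.076 (SE) and 0.05 ± 0.14 (SE), and those of Parp12 and Parp14 were 0.02 ± 0.071 (SE) and -0.06 ± 0.13 (SE). With all libraries none of the 4 passed the adjusted p, all 4 had overlapping groups, and the signs of Dtx3l and Parp14 turned under some settings. Slfn5 and Xaf1 also had overlapping groups, at 0.07 and 0.16. Without mature replicate 3, Parp9, Dtx3l and Slfn5 had log2 fold changes of 0.20, 0.19 and 0.22 and passed the adjusted p alone (0.00395, 0.0149 and 0.0192). Further members that did not pass the adjusted p were Ifit3, Oas3, Ifi47 and the exonuclease gene Isg20, at -0.36 to 0.56.

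Bst2 and the other short transcripts need a caution about mature replicate 3. Bst2 encodes tetherin, which holds budding virus at the cell surface and marks plasmacytoid dendritic cells at rest in mice. Its CPM was 59.8, 70.6 and 68.5 in immature libraries and 107, 104, 192 and 99.3 in mature libraries. Every mature library was above the immature ones, but mature replicate 3 stood far above the rest. For Bst2 the log2 fold change was 0.92 ± 0.23 (SE, adjusted p = 0.0114), under the fold criterion, and 0.67 without mature replicate 3.

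Across the 42 genes, the ratio (log2) between mature replicate 3 and the average of mature replicates 1, 2 and 4 ran from 0.89 in Bst2, with a longest transcript of 792 bases, to -0.97 in Eif2ak2, with 4313 bases. Spearman's rho between that ratio and transcript length was -0.66 over the 42 genes, which all come from the same libraries. Mature replicates 1, 2 and 4 were likewise each divided by the average of the remaining mature libraries, and rho was 0.35 to 0.47. Mature replicate 3 is in each of those averages, and its length trend alone would push rho upwards there. Whether mature replicates 1, 2 and 4 have a length trend of their own cannot be read from this. Helz2, with the longest transcript of the 42 at 10109 bases, had a ratio of -0.89 in mature replicate 3. Isg15 and Isg20 are short and did not share the rise, with ratios of -0.09 and -0.58.

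**Figure D4:**
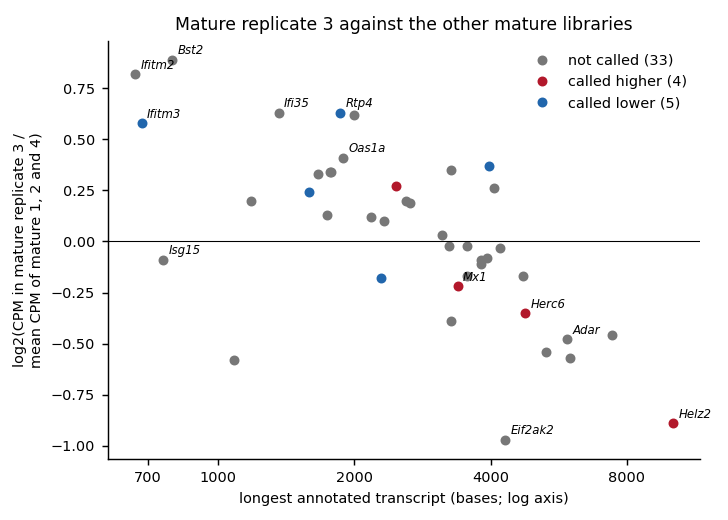
Longest annotated transcript (horizontal log axis, bases) against the log2 ratio of CPM in mature replicate 3 to the mean of mature replicates 1, 2 and 4 for the 42 genes, coloured by their call. Short transcripts such as Bst2 and Ifitm2 lie above 0 and long ones such as Helz2 and Adar below, with Isg15 and Isg20 as exceptions.

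Per length, the genes covered a wide range of levels. FPKM (fragments scaled by transcript length and library size) is used here, since it can be compared between genes. Mean FPKM in immature cells was highest for Ifitm3 at 304, followed by Slfn2 at 155, Lgals3bp at 120, Ifitm2 at 112 and Lgals9 at 72.6. In mature cells the order was Bst2 at 130, Ifitm3 at 106, Samhd1 at 97.2, Slfn2 at 94.5 and Mx1 at 87.1. Without mature replicate 3 it was Bst2 at 111, Samhd1 at 101, Ifitm3 at 97.4, Mx1 at 92.1 and Slfn2 at 91.2. Mx1 had stood at 13.6 in immature cells. At the other end, Ifit3b, Ifi44 and Isg20 had a mean under 1 in both groups, and 23 of the 42 genes reached a mean of 10 in at least 1 group. Neighbours in these orders were not tested against each other.

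**Figure D5:**
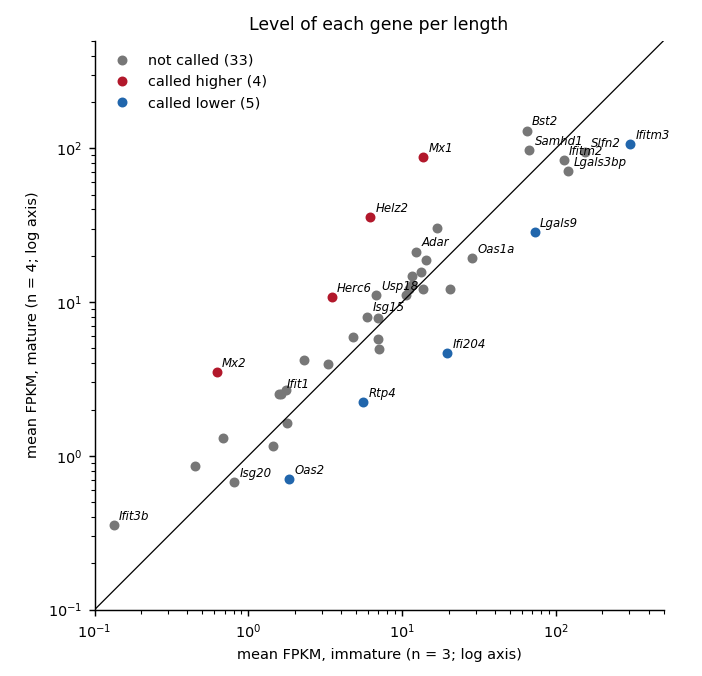
Mean FPKM of each of the 42 genes in immature (horizontal) and mature (vertical) BMDCs on log axes, with the line of equal levels. Mx1, Helz2, Herc6 and Mx2 lie above the line and the 5 genes called lower below it, and Bst2, Ifitm3 and Samhd1 are among the highest in mature cells.

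Other genes below the fold criterion were among the most abundant. Samhd1, a dNTP hydrolase that starves viruses of nucleotides, was at 675 to 711 CPM in immature and 895 to 1010 CPM in mature libraries, a log2 fold change of 0.43 ± 0.078 (SE, adjusted p = 0.00209). Slfn2, a regulator of quiescence in T cells and monocytes, was at 287 to 299 CPM in immature and 153 to 197 CPM in mature libraries, a log2 fold change of -0.82 ± 0.10 (SE, adjusted p = 2.01e-04). Lgals3bp, a secreted glycoprotein, was at 379 to 401 CPM in immature and 187 to 224 CPM in mature libraries, a log2 fold change of -0.87 ± 0.085 (SE, adjusted p = 5.42e-05). The groups did not overlap in any of these 3 genes. The remaining members that passed the adjusted p alone were Rsad2, Ifi44, Ifi35 and Sp100 upwards, at 0.29 to 0.82, and Cmpk2, Phf11b and Tor3a downwards, at -0.85 to -0.27. Ifi35 was at 0.75 and, without mature replicate 3, at 0.59. Cmpk2 (adjusted p = 0.0486) passed in no alternative, with adjusted p-values of 0.0555 to 0.159. Rsad2, Ifi44, Sp100 and Tor3a also missed the adjusted p in 1 or more alternatives.

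Genes that make or sense interferon were looked at beside its targets. Of 21 interferon ligand genes listed, 4 were in the table and none had enough counts to be tested. Ifnb1, the first type I interferon made in most cells, had 0 CPM in 6 libraries and 0.0453 CPM in mature replicate 2, and no ligand had more than 8 counts in any library. Of the receptor genes, Ifnar1 was at 125 to 130 CPM in immature and 117 to 163 CPM in mature libraries (log2 fold change 0.22, adjusted p = 0.17). Ifnar2 was at 78.0 to 80.8 CPM in immature and 60.6 to 72.6 CPM in mature libraries (log2 fold change -0.30, adjusted p = 0.0184; -0.34 without mature replicate 3). Neither reached the fold criterion. Ifnlr1, the receptor for type III interferon, rose from 1.53 to 2.08 CPM in immature libraries to 20.4 to 30.8 CPM in mature ones (log2 fold change 3.80, adjusted p = 1.91e-06), and Ifngr1, of the interferon gamma receptor, fell by 1.00 on the log2 scale (adjusted p = 1.11e-05).

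Among 12 signalling genes tested, 1 was called higher (against 13.2% of all genes) and none lower (against 9.95%). Log2 fold changes were positive in 8 of them, beside 9243 of all 17461 genes. In 6 every mature library lay above every immature one (against 25.4% of all genes), and in 2 every mature library lay below (against 26.7%). Tyk2, Stat2 and Irf9 had log2 fold changes of 0.76, 0.57 and 0.49 with adjusted p-values of 2.98e-04, 0.0104 and 5.04e-04, and in each the mature libraries lay above the immature ones. Without mature replicate 3 these were 0.86, 0.71 and 0.50. Jak1 (-0.19, adjusted p = 0.273) did not pass, and it was at -0.06 without mature replicate 3. Jak2, a kinase of the interferon gamma and GM-CSF receptors, rose with a log2 fold change of 1.51 (adjusted p = 2.49e-05). Among the interferon regulatory factors Irf8, a factor of the dendritic lineage, rose with a log2 fold change of 2.11 (adjusted p = 4.39e-07). Irf1 had 0.64 (adjusted p = 0.00106), Irf3 0.33 (adjusted p = 0.0659) and Irf7 0.71 (adjusted p = 0.0679). Irf7 was at 9.67 CPM in mature replicate 1, within the immature range of 9.39 to 13.6, and at 20.2 to 22.2 CPM in the other mature libraries.

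Of 15 nucleic acid sensor and adaptor genes tested, 3 were called lower (20%, against 9.95% of all genes) and none higher (against 13.2%). By the adjusted p alone 8 were lower, beside 4006 of all 17461 genes, and 1, Aim2, was higher, beside 4047 of all genes. The 3 called were Tlr7, the endosomal receptor for single-stranded RNA (log2 fold change -2.61, adjusted p = 3.1e-06), Tlr3, that for double-stranded RNA (-1.52, adjusted p = 2.99e-04), and Ddx58, which encodes RIG-I (-1.11, adjusted p = 1.67e-05). Over all 40 pathway genes tested, 3 were called higher (7.5%, against 13.2% of all genes) and 4 lower (10%, against 9.95%).

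A wider list of 73 tested interferon-stimulated genes outside the 42 was read in the same way. In it 11 were called higher (15.1%, against 13.2% of all genes), 9 lower (12.3%, against 9.95%) and 53 not, with a median log2 fold change of 0.11. Those higher were Ifi30, Ifitm1, Apobec3, Uba7, Ms4a4c, Phf11c, Hsh2d, Epsti1, Tgtp1, Sp110 and Sp140. Those lower were Ifi203, Ifi207, Ifitm6, Gbp7, Phf11a, Slfn1, Slfn3, Slfn4 and Ly6e. Uba7, the activating enzyme for Isg15, rose from 56.7 to 63.4 CPM in immature libraries to 123 to 128 CPM in mature ones (log2 fold change 1.04, adjusted p = 8.27e-06). Among 7 Slfn genes across both lists 3 were called lower (against 9.95% of all genes) and none higher (against 13.2%), and in 6 every mature library lay below every immature one (against 26.7% of all genes). Of 66 of these genes with a promoter window 33 held the ISRE core (50.0%).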

How the data were processed

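RNA of flow-sorted immature (n = 3) and mature (n = 4) BMDCs was analysed, with groups and replicate numbers taken from the sample labels. For each gene the authors deposited unnormalized whole-number counts and FPKM values, which are scaled by gene length and library size. Per the submitters' processing notes, cutadapt 1.9, HISAT2 2.2.1, StringTie 2.1.6, DESeq2 and edgeR were used. Those notes name build mm9, but 99.99% of 28588 shared gene IDs overlap GENCODE M21 on GRCm38, so coordinates are given as GRCm38. A count of 4 was more frequent than 3 or 5, so 1 fragment may stand for several counts and counting intervals are not given. The libraries marked strand, but whether counting used it is not given in the sources used here.

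The deposited counts of all 7 libraries were filtered with filterByExpr, scaled by TMM and fitted with the quasi-likelihood model of edgeR 4.0.16 (R 4.3.3), and p-values were adjusted over 17461 genes by Benjamini-Hochberg. Each standard error was taken as |log2 fold change| / √F. CPM are counts scaled to a common total after TMM. Total counts were 54846746 to 67973086 per library. Alternatives were DESeq2 1.42.0, limma 3.58.1 on log2(FPKM + 1) and log2(FPKM + 0.1), upper quartile normalization, other filters, no fold criterion, a replicate block, each library left out and, added after seeing the data, counts divided by 4.

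The genes and lists were chosen with earlier results of these data known. Called members and Isg15, Ifit1, Mx1, Usp18, Oas1a, Eif2ak2, Adar and Ifitm3 have each library's value printed, and other members were given by range and count. From the other lists called genes are named, plus Ifnb1, Ifnar1, Ifnar2, Jak1, Tyk2, Stat2, Irf9, Irf1, Irf3 and Irf7; 1 further gene of this rule is not reported here. Bst2 values per library, Ifitm2, and the markers Itgax, Ly6d, Cxcr2 and Cdh1 were added after their values were seen. Marker lists of neutrophils (12.8 to 16.2 CPM summed in immature, 19.7 to 27.9 in mature libraries), mast cells and basophils (5.72 to 7.6 and 32.4 to 42.6, of which Kit made up most), T, NK and B cells (1.91 to 2.48 and 2.14 to 3.08) and epithelium (70.1 to 77.6 and 59.3 to 70) were also summed. Cxcr2 likewise made up most of the neutrophil sum, and Cdh1 most of the epithelial sum, in every library. Shared stretches are the percent of the 100-base stretches of a gene's longest GENCODE M21 transcript that occur in transcripts of another gene. Promoter windows are from RefSeq (GRCm38.p6). Python 3.11.15 was used with pandas 2.3.3 and matplotlib 3.10.9.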

Additional observations from a re-analysis of the deposited data

Results flagged for a closer look

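In each of 52 genes (the 42 members and 10 pathway genes), the highest or lowest of the 4 mature libraries was set against the others by its gap over the range, with Dixon's 95% critical value for 4 samples as the limit. Chance flags about 1 in 20, or 2.6 of 52, and 10 stood out. Mature replicate 3 was the odd library in 8 of the 10. It was highest for Oas1a (0.919), Ifi35 (0.89), Bst2 (0.917), Rtp4 (0.921), Ifnar2 (0.85) and Irf9 (0.833), and lowest for Eif2ak2 (0.859) and Jak1 (0.868). Mature replicate 1 was lowest for Lgals3bp (0.892) and Irf7 (0.84). The part of transcript length, whose values are given in the report, was not tested.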

How the results depend on the processing

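The same direction was found for 40 of 42 members in every alternative run (12 to 15 a gene). Parp14 turned to 0.05 with upper quartile normalization, 0.04 with limma at either pseudocount and 0.07 without mature replicate 3 (-0.11 to 0.07 over the omissions of 1 library), and Dtx3l to -0.01 without mature replicate 1 (-0.01 to 0.19), in each case with no call. Of the 9 called members 8 were called in every alternative with the fold criterion, and Oas2 in all but limma on log2(FPKM + 1). Of the 33 others 31 were called in none. Bst2 passed with upper quartile normalization (1.03) and without mature replicate 2 (1.01) or 4 (1.02), and Ifit3b with DESeq2 (1.34), upper quartile normalization (1.43), counts divided by 4 (1.44) or without mature replicate 1 (1.56). With no fold criterion the calls were 14 members higher and 12 lower, 24 and 20 of the wider list, 25 pathway genes and 8053 of all genes, since that drops the fold requirement. All genes called came to 2665 when genes needed 1 FPKM in 3 libraries, 1768 with limma on log2(FPKM + 1) and 2561 on log2(FPKM + 0.1), each of which tested 11758 genes. Leaving out 1 library gave 4 to 5 members higher, 5 lower in every case, 10 to 11 and 9 to 10 of the wider list, 6 to 8 pathway genes and 3646 to 4052 of all genes. Upper quartile normalization moved the median of all genes to 0.16 and that of the members to 0.26. The share of all calls that were higher was 63.3% with it, against 57% with TMM. Ifit3b had the lowest mean CPM of the members and the largest standard error (0.50).

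Replicate numbers are shared between the groups. Deviations of same-numbered libraries correlated between -0.001 and 0.029, and those of differently numbered libraries between -0.048 and 0.036. The spread between libraries may be technical, so these values cannot show whether the numbers pair the samples. With the replicate number as a block 3616 genes were called, with 4 members higher and 5 lower, 10 and 9 of the wider list and 7 pathway genes. The ISRE share of 45.5% became 30.3% with the C added, while that of all genes went from 3.99% to 0.944%. Genes with the C are a part of those with the core, so either share could only stay or fall.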
